A study of Mus musculus with 48 samples.

Results

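The 7 genes described here encode the m6A writer complex, the nuclear enzyme that methylates adenosines inside mRNA: *Mettl3*, *Mettl14*, *Wtap*, *Rbm15*, *Rbm15b*, *Zc3h13* and *Cbll1*. They were taken by gene symbol from a table of 24010 genes, and all 7 were found and passed the filter on low values. The study reprogrammed mouse embryonic fibroblasts (MEFs) that carry *Rosa26*-M2rtTA, a doxycycline-inducible OSKM cassette (the factors *Oct4*, *Sox2*, *Klf4* and *Myc*) and an *Oct4*-GFP reporter, so that doxycycline at 1 µg/ml switches the factors on. Cells that also overexpressed *Mettl14* (*Mettl14* OE) or *Mettl3* (*Mettl3* OE) were compared with cells that received an empty vector (Control OE) on days 3, 6, 9, 12 and 15, and MEFs without doxycycline were the starting point. Each of these 16 groups had 3 libraries of poly(A) RNA, 48 in all. The *Rosa26*-M2rtTA, OSKM and *Oct4*-GFP alleles are shared by all groups, and OSKM was on in all but the MEFs. No source states whether the libraries of a group come from separate cultures, so each p-value measures the spread between these libraries, which may be technical. The question was whether an excess of one subunit goes along with a shift in the mRNA of the others.

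*Mettl3* holds the methyltransferase site of the complex and *Mettl14* is its partner, which lacks catalytic activity and helps to bind the RNA substrate. *Wtap* is the adaptor that keeps this pair in nuclear speckles, and *Rbm15* and *Rbm15b* are paired RNA-binding proteins that bring the complex to its targets. *Zc3h13* is a zinc finger protein that bridges *Wtap* to the RBM15 proteins and keeps the complex in the nucleus, and *Cbll1* (Hakai) is an E3 ubiquitin ligase found in the same complex. *Virma*, the large scaffold subunit, was kept in a list of other m6A genes and is given beside the members.

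Expression was given as FPKM, fragments scaled to transcript length and to the mapped fragments of the library. The values came in 3 tables set side by side (MEFs with day 3, days 6 with 9, days 12 with 15). Each difference of arms and each step between days was therefore taken within a table, and levels of different tables are only set beside each other. The F tests of the daily changes set within-day differences of all 3 tables against each other. Across a table border, day and table cannot be told apart. Depth is not given in the sources used here. From the spacing of the lowest FPKM values it was estimated at 12.99 to 37.14 M fragments per library (median 23.2). On that estimate *Cbll1*, the lowest member, had a median of 293 fragments per library, for a counting error of 5.84%, and *Rbm15b* had 2206 (2.13%). Libraries of a group correlated at 0.960 to 0.982 across genes. In the MEFs the defining markers of fibroblasts were present: 7 fibroblast markers summed to 184 to 195 FPKM, against 0.548 to 0.941 for 5 epithelial, 0.119 to 0.510 for 5 pluripotency (*Utf1* at 0), 5.79 to 6.597 for 5 macrophage and 0.404 to 0.656 for 3 endothelial markers.

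The promoters of 6 of the 7 members are in the RefSeq table of GRCm38.p6, each from 250 bases before to 50 after the start of transcription, and 4 are shown because they belong to the 3 members that were higher in *Mettl3* OE in the mean over days and to *Rbm15b*, the paralogue of *Rbm15*. The build of the expression values is mm9, so these coordinates do not apply to it. Capitals mark 3 common promoter elements on either strand: the E-box CACGTG, the CCAAT box CCAAT and the GC box GGGCGG.
*Wtap* promoter (chr17:12992494-12992793, minus strand): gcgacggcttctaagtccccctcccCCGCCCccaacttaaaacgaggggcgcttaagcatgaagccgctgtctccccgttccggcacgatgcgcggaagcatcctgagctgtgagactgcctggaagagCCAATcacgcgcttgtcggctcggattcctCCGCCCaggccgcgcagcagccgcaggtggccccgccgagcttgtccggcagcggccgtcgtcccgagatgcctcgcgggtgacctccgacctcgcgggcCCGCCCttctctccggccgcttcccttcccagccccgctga
*Rbm15* promoter (chr3:107333240-107333539, minus strand): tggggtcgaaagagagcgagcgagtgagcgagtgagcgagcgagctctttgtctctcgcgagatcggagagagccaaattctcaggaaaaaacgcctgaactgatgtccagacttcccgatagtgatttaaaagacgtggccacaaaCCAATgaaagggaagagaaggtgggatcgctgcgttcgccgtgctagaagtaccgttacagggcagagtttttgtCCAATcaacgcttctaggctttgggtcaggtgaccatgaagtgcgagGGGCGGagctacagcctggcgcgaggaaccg
*Cbll1* promoter (chr12:31499567-31499866, minus strand): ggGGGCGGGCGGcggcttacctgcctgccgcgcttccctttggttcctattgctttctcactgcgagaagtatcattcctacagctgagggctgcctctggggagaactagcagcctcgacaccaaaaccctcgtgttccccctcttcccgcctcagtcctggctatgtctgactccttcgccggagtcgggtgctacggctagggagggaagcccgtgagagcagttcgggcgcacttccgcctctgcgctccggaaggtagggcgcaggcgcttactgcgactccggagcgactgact
*Rbm15b* promoter (chr9:106887026-106887325, minus strand): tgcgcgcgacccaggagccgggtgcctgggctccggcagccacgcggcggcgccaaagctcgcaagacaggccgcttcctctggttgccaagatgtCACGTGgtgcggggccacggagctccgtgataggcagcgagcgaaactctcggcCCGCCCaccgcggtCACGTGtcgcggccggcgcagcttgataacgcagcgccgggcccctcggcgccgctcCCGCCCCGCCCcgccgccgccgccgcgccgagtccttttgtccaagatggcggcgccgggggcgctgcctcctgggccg

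The *Wtap* window, the first of 3 overlapping ones listed for this gene, held 1 CCAAT box and 3 GC boxes, and the *Rbm15* window held 2 CCAAT boxes and 1 GC box. The *Cbll1* window held 2 GC boxes and neither of the other elements. The *Rbm15b* window held 2 E-boxes, 3 GC boxes and no CCAAT box. Among all 32851 promoter windows of this length, 7.15% held an E-box, 37.4% a CCAAT box and 35.7% a GC box. Matches could overlap each other: 1 base of the *Rbm15b* window and 2 bases of the *Cbll1* window lay in more than 1 match, and none in the other printed windows.

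Both overexpressed subunits were far above their own level in every other library. *Mettl14* had 376, 420 and 411 FPKM in *Mettl14* OE on day 3, 414, 464 and 476 on day 6, 363, 423 and 342 on day 9, 264, 185 and 272 on day 12, and 254, 227 and 218 on day 15. In the 33 libraries without this transgene it had 4.30 to 7.47 FPKM (median 5.25). *Mettl3* had 2157, 2367 and 1582 FPKM in *Mettl3* OE on day 3, 2578, 2919 and 2725 on day 6, 2410, 2583 and 2426 on day 9, 1526, 1835 and 1764 on day 12, and 1078, 1358 and 1218 on day 15. In the 33 other libraries it had 3.33 to 6.79 FPKM (median 4.87). No library of an overexpressing arm came near the range of the rest. The table gives 1 value per gene, so the transcript of the transgene and that of the cell's own gene are not separated in it, and *Mettl3* also overlaps exons of *Tox4* on the opposite strand. The transgenic *Mettl3* fell between days 12 and 15 of *Mettl3* OE (log2 change -0.49 ± 0.11 SE, limma, adjusted p = 0.00486). Without the day 15 replicate 1 its adjusted p was 0.0586. On the FPKM scale the 2 arms were therefore not matched in excess: *Mettl3* averaged 2035 FPKM over the 15 libraries of *Mettl3* OE, and *Mettl14* averaged 340.5 over those of *Mettl14* OE. FPKM divides by annotated length. In an annotation that is not the authors' own, the median of the longer transcripts was 4202 bases for *Mettl14* and 1866.5 for *Mettl3*. The length of the transgene transcripts was not taken into account, so the size of this gap is uncertain.

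As FPKM is scaled to annotated length, the paired subunits can be set against each other. In the overexpressing arms the ratio holds only as far as the transgene transcript has that length. The ratio of *Mettl3* to *Mettl14* ranged from 0.0118 to 0.0214 in *Mettl14* OE (median 0.0139) and from 240.1 to 508.5 in *Mettl3* OE (median 368.9). In Control OE it ranged from 0.677 to 1.22 (median 0.955), and the MEFs had 0.8635, 0.9747 and 1.103. The partners were thus at near equal mRNA level without a transgene, and each transgene moved the ratio away from 1 in all 15 of its libraries. *Mettl3* mRNA took 0.218 to 0.950% of the FPKM sum in *Mettl3* OE, against 0.00102 to 0.00210% in Control OE.

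**Figure D1:**
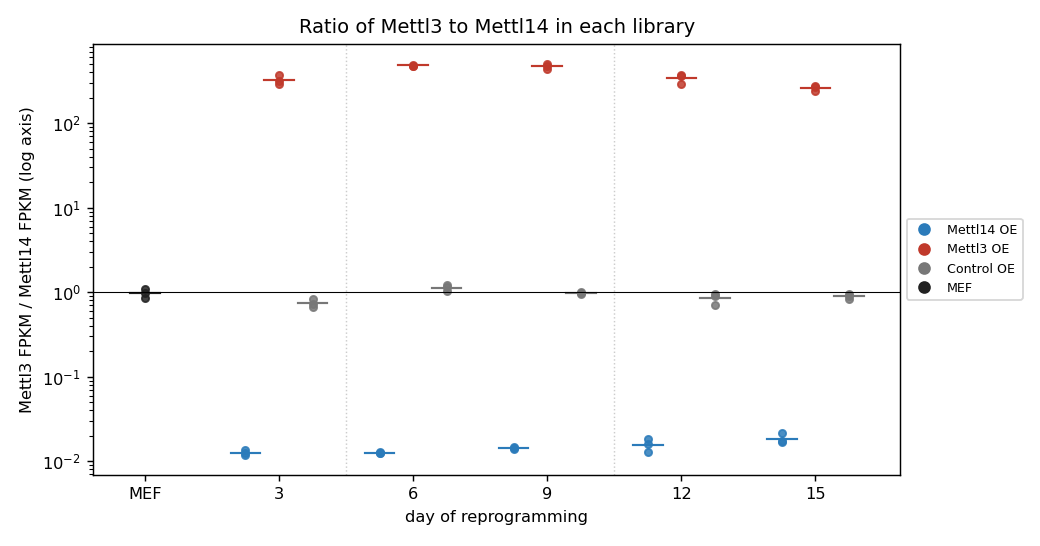
Ratio of *Mettl3* FPKM to *Mettl14* FPKM in each library (log axis) by day, with group means as bars and dotted lines between the 3 tables. *Mettl14* OE lies near 0.0139, *Mettl3* OE near 368.9, and Control OE and MEF near 1.

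In MEFs the most abundant members were *Rbm15b* (13.8, 14.1 and 17.1 FPKM) and *Wtap* (12.4, 13.8 and 13.1 FPKM), whose libraries did not overlap. *Zc3h13* (12.6, 12.4 and 11.03 FPKM) and *Rbm15* (9.44, 11.7 and 11.4 FPKM) came next, and the ranges of these neighbours overlapped. *Mettl14* (4.30, 5.37 and 4.89 FPKM) and *Mettl3* (4.19, 4.63 and 5.39 FPKM) were lower and overlapped each other. *Cbll1* was lowest, with 2.05, 1.81 and 1.96 FPKM. The catalytic pair was thus below the adaptor and the RNA-binding proteins in mRNA level. In Control OE over all days the medians kept *Wtap* (15.0 FPKM) and *Rbm15b* (14.4 FPKM) at the top and *Cbll1* (3.21 FPKM) at the bottom, with *Rbm15* at 10.4, *Zc3h13* at 7.78, *Mettl14* at 5.34 and *Mettl3* at 5.06 FPKM.

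**Figure D2:**
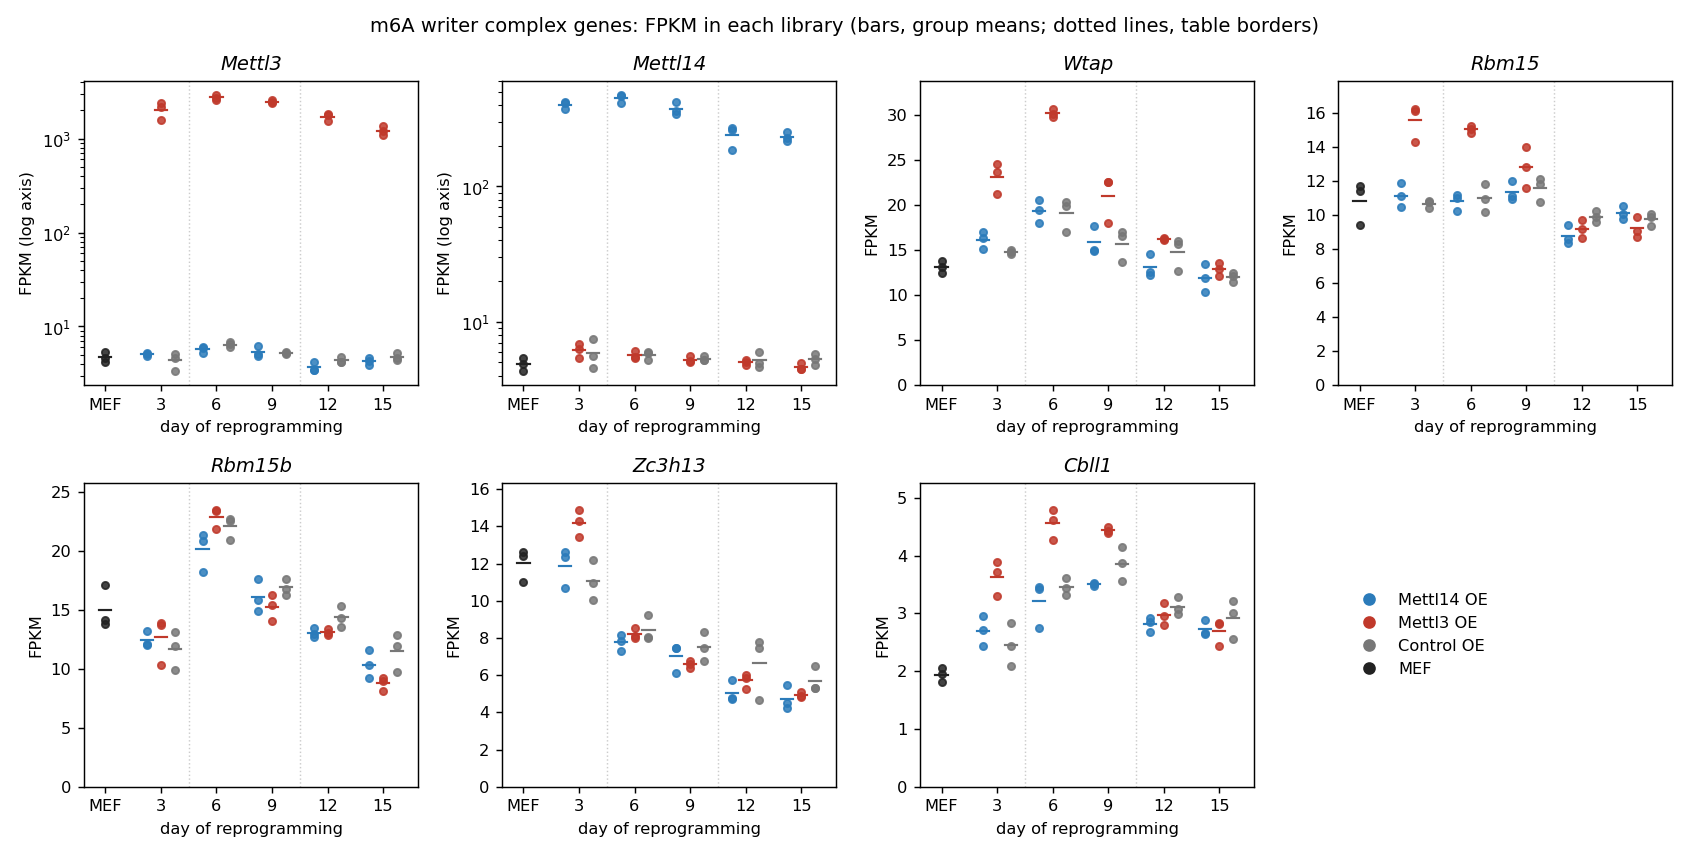
FPKM of the 7 members in each of the 48 libraries by day (*Mettl3* and *Mettl14* on log axes), with *Mettl14* OE, *Mettl3* OE, Control OE and MEF as colours, group means as bars and dotted lines between tables. *Wtap*, *Rbm15* and *Cbll1* stand above Control OE in *Mettl3* OE on days 3 and 6, while *Rbm15b* and *Zc3h13* on these days lie nearer to Control OE, apart from *Zc3h13* on day 3.

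An excess of *Mettl3* went along with more mRNA of several partners early in reprogramming, and not with more *Mettl14*. On day 3, 4 of the 6 other members passed the test in *Mettl3* OE, all of them higher (*Wtap*, *Rbm15*, *Cbll1* and *Zc3h13*), where 9.5% of all genes tested passed. On day 6, 2 of 6 passed, both higher (*Wtap* and *Rbm15*; 4.31% of all genes), and on day 9 only *Wtap* did (9.35%). On day 12, 0 of 6 passed by limma, with 0 at an unadjusted p under 0.05 (5.47% of all genes passed). On day 15, 1 of 6 passed, *Rbm15b*, which was lower (14.8%). The median log2 change of the 6 members was 0.38, 0.18, 0.06, -0.07 and -0.12 on days 3, 6, 9, 12 and 15, beside -0.02, -0.02, 0.03, 0.00 and -0.08 over all genes. On these days the groups of 4, 3, 2, 2 and 2 of the 6 members did not overlap. Among 23 other m6A genes the same held for 8, 8, 10, 5 and 13. How many of all genes stood apart was not counted, here or in the other comparisons and steps.

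*Wtap*, the adaptor, had the largest change of the 6 members on days 3, 6 and 9. On day 3 it had 23.6, 24.6 and 21.2 FPKM in *Mettl3* OE, against 15.0, 14.8 and 14.5 in Control OE (1.57-fold, log2 change 0.61 ± 0.07 SE, adjusted p = 7.6e-04). On day 6 it had 29.8, 30.1 and 30.7 FPKM in *Mettl3* OE, against 20.4, 17.0 and 19.9 in Control OE (1.58-fold, log2 change 0.64 ± 0.08 SE, adjusted p = 0.00571). On day 9 it had 18.1, 22.5 and 22.6 FPKM in *Mettl3* OE, against 16.6, 13.6 and 17.0 in Control OE (1.34-fold, log2 change 0.40 ± 0.11 SE, adjusted p = 0.0482). The groups did not overlap on any of these days. On day 12 it had 16.2, 16.1 and 16.3 FPKM in *Mettl3* OE, against 15.7, 12.7 and 16.1 in Control OE, a change of 0.13 (adjusted p = 0.419). These groups were just apart (16.14 to 16.33 against 12.66 to 16.05 FPKM). On day 15 it had 12.2, 13.6 and 12.9 FPKM in *Mettl3* OE, against 12.2, 11.4 and 12.4 in Control OE, a change of 0.09 with overlapping libraries (adjusted p = 0.490). The 5 daily changes differed from each other (limma F test, adjusted p = 0.00275), which 18.8% of all genes tested did. The day 3 call held when any 1 library was left out. The day 6 call was lost without the *Mettl3* OE replicate 2 (adjusted p = 0.0519), and the day 9 call without any 1 of 5 libraries, all but *Mettl3* OE replicate 1 (adjusted p 0.0782 to 0.186). *Wtap* on day 9 also failed with a filter at 5 FPKM or none, without trend and robust moderation, with a pseudocount of 0.1 and with the replicate number as a block (0.0502 to 0.0905), and on day 15 it passed with median-ratio scaling (0.20, 0.0342).

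Of *Rbm15* and *Rbm15b*, the RNA-binding pair, *Rbm15* passed as higher on days 3 and 6 and *Rbm15b* on neither; the difference between the 2 genes was not tested. On day 3 *Rbm15* had 16.2, 16.3 and 14.3 FPKM in *Mettl3* OE, against 10.8, 10.8 and 10.4 in Control OE (1.46-fold, log2 change 0.50 ± 0.07 SE, adjusted p = 0.00231). On day 6 it had 14.8, 15.1 and 15.3 FPKM in *Mettl3* OE, against 11.9, 10.9 and 10.2 in Control OE (1.37-fold, log2 change 0.42 ± 0.07 SE, adjusted p = 0.0182). The groups stood apart on both days. From day 9 on they overlapped, with changes of 0.14, -0.10 and -0.07 on days 9, 12 and 15 (adjusted p 0.356, 0.428 and 0.520), and the daily changes differed (adjusted p = 3.5e-05). The day 3 call of *Rbm15* held without any 1 library, and its day 6 call was lost without Control OE replicate 2 or 3 or *Mettl3* OE replicate 2 or 3 (adjusted p 0.0585 to 0.108). *Rbm15b* had 13.9, 13.7 and 10.4 FPKM in *Mettl3* OE on day 3, against 13.1, 9.90 and 12.0 in Control OE, with overlapping groups and a change of 0.11 (95% interval -0.15 to 0.37). Its changes on days 6, 9 and 12 were 0.05, -0.14 and -0.13, and on day 12 its groups did not overlap (12.9 to 13.35 FPKM in *Mettl3* OE against 13.53 to 15.32 in Control OE). On day 15 it had 8.16, 9.01 and 9.27 FPKM in *Mettl3* OE, against 12.0, 9.70 and 12.9 in Control OE, which did not overlap (0.766-fold, log2 change -0.34 ± 0.10 SE, adjusted p = 0.0361). That call was lost without any 1 of 5 libraries, all but Control OE replicate 2 (adjusted p 0.0584 to 0.139) and with median-ratio scaling (0.0583), no filter (0.0884) or no trend and robust moderation (0.0609), and the daily changes of *Rbm15b* did not pass the F test (adjusted p = 0.0889). In the annotation *Rbm15b* overlaps *Manf* on the same strand and *Dcaf1* on the other, so some of its reads may be shared with them.

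*Cbll1*, the ubiquitin ligase, had 3.71, 3.30 and 3.896 FPKM in *Mettl3* OE on day 3, against 2.098, 2.44 and 2.83 in Control OE (1.48-fold, log2 change 0.43 ± 0.10 SE, adjusted p = 0.0208). On day 6 it had 4.27, 4.62 and 4.79 FPKM in *Mettl3* OE, against 3.45, 3.33 and 3.61 in Control OE, groups that did not overlap, with a change of 0.32 ± 0.09 SE (adjusted p = 0.0770). On day 9 it had 4.43, 4.39 and 4.49 FPKM in *Mettl3* OE, against 3.56, 3.87 and 4.16 in Control OE, again apart, with a change of 0.16 (adjusted p = 0.169). On day 9 the groups of 10 of 23 other m6A genes were apart too, and 0 of the 23 were called. The day 6 value of *Cbll1* passed with median-ratio scaling (adjusted p = 0.0403), quantile normalization (0.0487), library weights (0.00636), all 48 libraries in one fit (0.00299) and the replicate number as a block (0.0215). Its daily changes differed (adjusted p = 0.00117), and on days 12 and 15 they were -0.05 and -0.08, with overlapping groups. The day 3 call of *Cbll1* was lost without Control OE replicate 1 or 2 or *Mettl3* OE replicate 1 or 3 (adjusted p 0.0530 to 0.0671) and with no filter on low values (0.0669). *Cbll1* overlaps the annotated gene Gm29542 on the opposite strand.

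*Zc3h13*, the bridging zinc finger protein, was higher in *Mettl3* OE on day 3 alone, with 14.3, 13.4 and 14.9 FPKM, against 10.98, 10.02 and 12.2 in Control OE (1.28-fold, log2 change 0.34 ± 0.09 SE, adjusted p = 0.0356). On days 6, 9, 12 and 15 its changes were -0.03, -0.16, -0.16 and -0.17, none of which passed, and the daily changes differed (adjusted p = 0.0459). On day 15 its groups did not overlap (4.81 to 5.086 FPKM in *Mettl3* OE against 5.295 to 6.481 in Control OE). The day 3 call was lost without any 1 of 5 libraries, all but Control OE replicate 3 (adjusted p 0.0550 to 0.118), and with no filter on low values (0.104). On day 12 Control OE replicate 2 had 4.68 FPKM of *Zc3h13*, where replicates 1 and 3 had 7.45 and 7.78. Without it *Zc3h13* was lower in *Mettl3* OE on that day (log2 change -0.36, adjusted p = 0.0360).

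*Mettl14*, the partner of *Mettl3* in the catalytic pair, passed on no day. On day 3 it had 6.88, 6.28 and 5.37 FPKM in *Mettl3* OE, against 5.54, 4.56 and 7.47 in Control OE, and on day 6 5.37, 6.09 and 5.52 FPKM in *Mettl3* OE, against 5.94, 5.25 and 5.87 in Control OE. The groups overlapped on all 5 days, and its changes ran from -0.16 on day 15 to 0.08 on day 3. Over all days the mean change of *Mettl14* was -0.03 (95% interval -0.14 to 0.08, adjusted p = 0.700), while its partner stood 404.5-fold above Control OE.

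**Figure D3:**
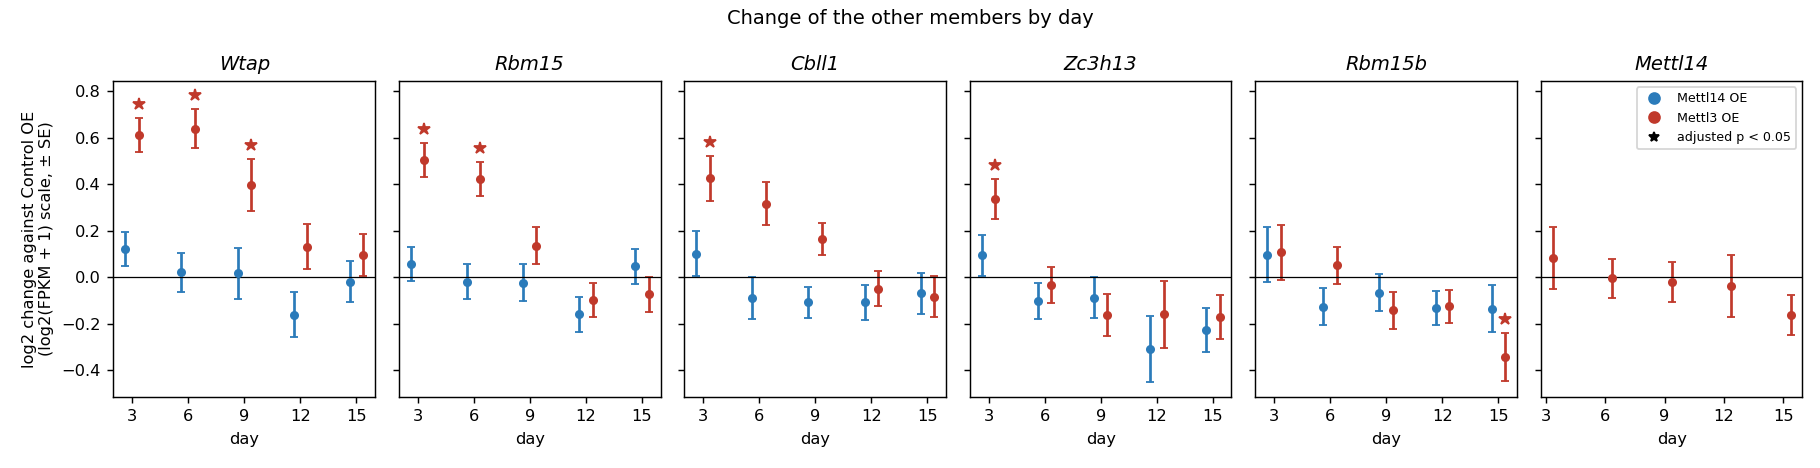
Log2 change against Control OE (log2(FPKM + 1) scale, ± SE) of the 6 members other than *Mettl3* by day, in *Mettl14* OE (*Mettl14* itself left out) and *Mettl3* OE, with stars where the adjusted p is under 0.05. *Wtap* in *Mettl3* OE starts at 0.61 and ends at 0.09, and *Rbm15* and *Cbll1* also decline to around 0, while the *Mettl14* OE points carry no star.

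Averaged over the 5 days in one fit of all 48 libraries, 3 of the 6 other members were higher in *Mettl3* OE and 0 were lower, where 12.8% of all genes passed as higher and 22.8% as lower. *Wtap* rose by 0.37 ± 0.04 SE (adjusted p = 9.0e-09), *Rbm15* by 0.18 ± 0.03 (3.2e-05) and *Cbll1* by 0.15 ± 0.03 (3.8e-04), on the log2(FPKM + 1) scale. *Rbm15b* had -0.09 ± 0.04 (adjusted p = 0.107) and *Zc3h13* -0.04 ± 0.05 (0.569). At an unadjusted p under 0.05 *Rbm15b* also counted as lower. Its mean effect passed as lower without Control OE day 15 replicate 2 (adjusted p = 0.0370) and without Control OE day 3 replicate 2 (0.0418), and with day 3 (0.0254) or day 6 (0.0490) left out. The mean effect of *Cbll1* did not pass with day 3 left out (0.09, adjusted p = 0.0703). None of the mean effects reached a fold of 1.5. *Virma*, the scaffold outside the list of 7 (listed in the file under its older symbol 1110037F02Rik), was 1.31-fold higher in *Mettl3* OE on day 3 (6.57 against 5.01 FPKM, log2 change 0.33, adjusted p = 0.0218) and 0.15 ± 0.03 higher over all days (adjusted p = 1.5e-04).

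Marker genes of other cell states moved with the *Mettl3* OE arm as well. On day 3 the 7 fibroblast markers summed to 47.95 to 50.54 FPKM in *Mettl3* OE, against 70.3 to 70.9 in Control OE, while the 5 epithelial markers summed to 22.2 to 32.8, against 28.2 to 37.8. On day 6 the fibroblast sum was 420.3 to 674.5 in *Mettl3* OE, against 862.9 to 1114 in Control OE, and the epithelial sum 411.5 to 592.9, against 287.5 to 312.8. On day 9 the fibroblast sum was 1159 to 1281 in *Mettl3* OE, against 1542 to 1834 in Control OE, and the epithelial sum 735.9 to 785.9, against 469.3 to 561.1. On day 12 the pluripotency sum was 1.192 to 3.544 in *Mettl3* OE, against 5.427 to 10.95 in Control OE, while the fibroblast sum was 1680 to 1843, against 1417 to 1986, and the epithelial sum 646.8 to 855.4, against 535.1 to 674.2. On day 15 the pluripotency sum was 6.36 to 9.77 in *Mettl3* OE, against 22.0 to 26.8 in Control OE, and the macrophage sum 17.4 to 19.7, against 24.1 to 36.1. The fibroblast sum on that day was 1748 to 2055, against 2228 to 2525. The endothelial sum was lower in *Mettl3* OE on day 9 (11.65 to 12.98, against 14.56 to 15.75) and day 12 (11.36 to 12.18, against 13.77 to 15.36). On day 15 it was 11.87 to 13.48, against 17.06 to 18.39. Of all listed markers in these groups of all 5 days, *Dppa5a* alone was at 0 in every library of a group, in *Mettl3* OE on days 3 and 6. Some sums were also below Control OE without overlap in *Mettl14* OE. These were the endothelial sum on days 12 (11.48 to 12.46) and 15 (14.03 to 15.24) and the fibroblast sum on day 15 (2002 to 2190). The other sums of *Mettl14* OE overlapped Control OE on these days. The part of these shifts in the changes of the members was not tested, and in bulk RNA fewer cells of a type and less RNA per cell cannot be told apart.

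An excess of *Mettl14* went along with no called change in any other member. This comparison uses the same Control OE libraries as the one above. In *Mettl14* OE 0 of 6 passed by limma on days 3, 6, 9, 12 and 15, where 0.0203%, 0.00866%, 0.017%, 0.0168% and 1.05% of all genes tested passed, so that few genes of any kind were called within a day. At an unadjusted p under 0.05 there were 0 members on days 3 to 12 and 1 on day 15 (*Zc3h13*, -0.23). *Mettl3*, the partner, had 5.11, 5.27 and 4.85 FPKM in *Mettl14* OE on day 3, against 4.67, 3.33 and 5.06 in Control OE. On day 6 it had 5.17, 6.05 and 5.91 FPKM in *Mettl14* OE, against 6.79, 6.43 and 6.05 in Control OE, and on day 12 4.23, 3.42 and 3.46 FPKM, against 4.18, 4.22 and 4.75. The groups of *Mettl3* overlapped on days 3 and 12 and met at their edges on day 6. *Wtap* stood above Control OE without overlap on day 3 (15.2 to 17.0 against 14.5 to 15.0 FPKM). *Cbll1* stood below it on day 9 (3.48 to 3.52 against 3.56 to 4.16). On day 12 *Rbm15* (8.39 to 9.405 against 9.60 to 10.3), *Rbm15b* (12.7 to 13.4 against 13.5 to 15.3) and *Cbll1* (2.69 to 2.92 against 2.98 to 3.28) stood below it. The median of all genes on day 12 was -0.12, and how many of all genes stood apart was not counted. Over all days the change of *Mettl3* was -0.05 (95% interval -0.15 to 0.05), that of *Wtap* 0.00 (-0.09 to 0.08) and that of *Rbm15* -0.02 (-0.08 to 0.04).

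The mean effect of *Mettl14* OE over days gave 0 of 6 members called, with 1 at an unadjusted p under 0.05, where 13.1% of all genes passed, 1653 of 1668 of them lower. The number of genes called depended on the scaling: it was 1668 with the deposited FPKM, 25 after median-ratio scaling and 24 after quantile normalization. It also depended on the days and weights. With day 12 left out it was 3, without day 15 295, without day 6 384, without day 9 1716 and without day 3 2957. Library weights gave 4082. The median of all genes in *Mettl14* OE was -0.11 on day 6 and -0.12 on day 12, and median-ratio scaling moved both to within 0.01 of 0; the members' medians on these days were -0.10 and -0.16. *Zc3h13* had the lowest mean effect, -0.13 ± 0.05 SE (adjusted p = 0.0692). It passed as lower without Control OE day 12 replicate 2 (-0.17, adjusted p = 0.00511), without *Mettl14* OE day 15 replicate 1 (0.0373) or without *Mettl14* OE day 9 replicate 2 (0.0482), and with day 3 left out (0.0180) or library weights (0.00475). On day 12 alone, leaving out that Control OE replicate gave -0.51 for *Zc3h13* (adjusted p = 0.0133) and -0.26 for *Wtap* (0.0336). The daily changes of the other 6 members did not pass the F test, and those of *Mettl14* itself did (adjusted p = 0.0127; 0.055% of all genes passed).

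Set directly against each other, the 2 arms differed in *Wtap*, *Rbm15* and *Cbll1*, leaving the overexpressed pair aside. On day 3, 2 of 5 members passed, *Wtap* and *Rbm15*, both lower in *Mettl14* OE (4.61% of all genes). *Wtap* had 15.2, 17.0 and 16.3 FPKM in *Mettl14* OE, against 23.6, 24.6 and 21.2 in *Mettl3* OE, without overlap (log2 change -0.49 ± 0.07 SE, adjusted p = 0.00433). *Rbm15* had 11.9, 11.1 and 10.5 FPKM in *Mettl14* OE, against 16.2, 16.3 and 14.3 in *Mettl3* OE (-0.45 ± 0.07 SE, adjusted p = 0.00653). On day 6, 3 of 5 passed (5.65% of all genes), all lower in *Mettl14* OE: *Wtap* by -0.62 (adjusted p = 0.0102), *Rbm15* by -0.44 (0.0162) and *Cbll1* by -0.41 (0.0354). On day 9 *Wtap* (-0.38, adjusted p = 0.0460) and *Cbll1* (-0.27, 0.0245) passed (13.4%). On days 12 and 15, 0 of 5 passed by limma, with 1 (*Wtap*) and 0 at an unadjusted p under 0.05, where 4.16% and 0.758% of all genes passed. The median of all genes on day 12 was -0.11, and -0.01 with median-ratio scaling. Over all days *Wtap* was lower by -0.38 ± 0.04 SE (adjusted p = 1.6e-08), *Rbm15* by -0.20 ± 0.03 (1.0e-05) and *Cbll1* by -0.21 ± 0.03 (9.2e-06), 3 of 5 members, where 22.2% of all genes passed as lower. *Rbm15b* (0.02, 95% interval -0.07 to 0.11) and *Zc3h13* (-0.09, -0.19 to 0.01) did not pass. The calls of day 6 and 9 did not hold without single libraries: on day 6 none was left without *Mettl3* OE replicate 2 or 3 and *Wtap* alone without *Mettl14* OE replicate 1 or 3, and on day 9 none without *Mettl14* OE replicate 1 or 3 or *Mettl3* OE replicate 2 or 3, and *Wtap* alone without *Mettl3* OE replicate 1 (adjusted p of the lost calls 0.0522 to 0.163). *Cbll1* on day 6 also failed with median-ratio scaling (0.0527), no filter (0.0605) or quantile normalization (0.0619). On day 9 *Cbll1* failed with median-ratio scaling (0.0724), quantile normalization (0.0778) or the replicate block (0.0569), and *Wtap* with no filter (0.0858), no trend and robust moderation (0.0590), quantile normalization (0.0784) or the replicate block (0.0763).

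**Figure D4:**
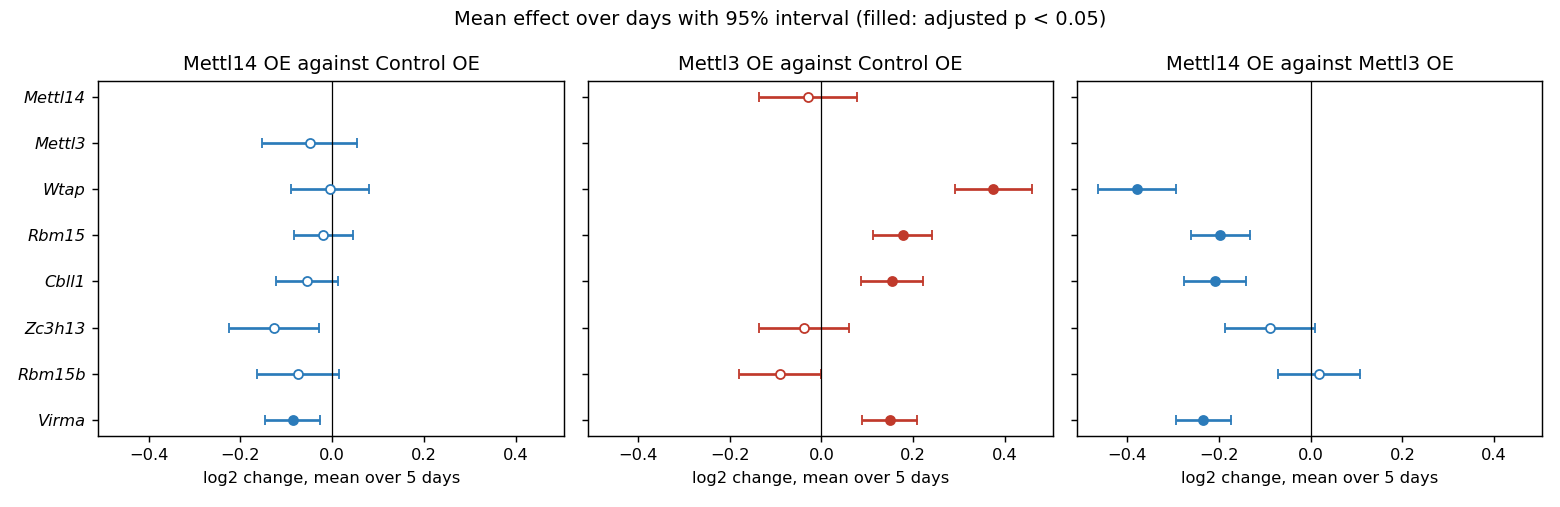
Mean log2 change over 5 days with its 95% interval for the members and *Virma* in the 3 comparisons of arms, overexpressed genes left out, with filled points where the adjusted p is under 0.05. *Wtap* lies at 0.37 in *Mettl3* OE against Control OE and at -0.38 in *Mettl14* OE against *Mettl3* OE, and its interval in *Mettl14* OE against Control OE spans 0.

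Apart from the transgenes, some members changed with time in every arm. In each step 2 to 4 of the 7 members passed (transgenes counted), where 8.53% to 51.2% of all genes tested did. A change with time was therefore not confined to the members. The lowest share, 8.53%, was that of day 15 against day 12 in *Mettl3* OE. There 3 of 7 members passed, with the transgene *Mettl3* among them. The highest, 51.2%, was that of Control OE on day 3 against MEFs, where 2 of 7 passed. Whether the members changed more often than other genes was not tested. *Rbm15b* was lower on day 9 than on day 6 in *Mettl14* OE (log2 change -0.31, adjusted p = 0.0122), *Mettl3* OE (-0.56, 1.5e-05) and Control OE (-0.37, 0.00278). In Control OE it had 16.8, 16.3 and 17.7 FPKM on day 9, against 22.6, 22.7 and 21.0 on day 6, without overlap. It was lower again on day 15 than on day 12 in *Mettl14* OE (-0.31, 0.0168), *Mettl3* OE (-0.52, 4.2e-04) and Control OE (-0.31, 0.0293). It was also lower in Control OE on day 3 than in MEFs (9.90 to 13.1 against 13.8 to 17.1 FPKM, -0.34, 0.00368). The step from MEFs also differs by label in doxycycline, OSKM and the empty vector, so time cannot be told apart from these for any member. The calls in *Mettl3* OE held without any 1 library. Those of days 9 against 6 were lost in *Mettl14* OE without day 6 replicate 2 or 3 or day 9 replicate 3 (adjusted p 0.0513 to 0.0701). Those of days 15 against 12 were lost in *Mettl14* OE without day 12 replicate 1 or day 15 replicate 3 (0.0536 and 0.0930) and in Control OE without day 12 replicate 1 or 3 or day 15 replicate 2 (0.0661 to 0.205), and the step from MEFs without Control OE replicate 2 or MEF replicate 3 (0.0605 and 0.0510).

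*Wtap* was lower on day 9 than on day 6 in *Mettl14* OE (-0.27, adjusted p = 0.0189), *Mettl3* OE (-0.51, 2.7e-05) and Control OE (-0.27, 0.0199). The call in *Mettl3* OE held without any 1 library, and those in *Mettl14* OE and Control OE were lost without single libraries (day 6 replicate 2 or 3 or day 9 replicate 1 or 3 in *Mettl14* OE, adjusted p 0.0520 to 0.0936; day 6 replicate 1 or 3 or day 9 replicate 2 in Control OE, 0.0768 to 0.186). On day 15 against day 12 *Wtap* was lower in *Mettl3* OE (-0.31, 0.0310) and Control OE (-0.28, 0.0389), calls that were lost without any 1 of 5 of the 6 libraries of each step, all but *Mettl3* OE day 15 replicate 2 and Control OE day 12 replicate 2 (adjusted p 0.0598 to 0.165). The call in Control OE was also lost with a pseudocount of 0.1 (0.0515) or no filter (0.0513). In *Mettl14* OE the same change of *Wtap* was -0.13 (0.279), and it passed with median-ratio scaling (0.00329) or quantile normalization (9.1e-04). In *Mettl3* OE, *Rbm15* (-0.22, 0.0107) and *Zc3h13* (-0.28, 0.0327) were also lower on day 9 than on day 6. *Rbm15* lost that call without day 9 replicate 3 (0.108), and *Zc3h13* without any 1 of 5 libraries, all but day 9 replicate 2 (0.0524 to 0.0893), or with no filter (0.0551). *Zc3h13* in Control OE had -0.17 for day 15 against day 12 (0.303) and passed as lower without day 12 replicate 2 (-0.37, 0.0123) or with library weights (8.0e-07).

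*Cbll1* was higher in Control OE on day 3 (2.098, 2.44 and 2.83 FPKM) than in MEFs (2.05, 1.81 and 1.96 FPKM), a change of 0.23 (adjusted p = 0.00919) that was lost without Control OE replicate 3 (0.113) and with median-ratio scaling (0.0784) or quantile normalization (0.232). *Rbm15* was higher on day 15 than on day 12 in *Mettl14* OE (0.19, adjusted p = 0.0438), where the median of all genes was 0.15, and it did not pass with median-ratio scaling (0.675) or quantile normalization (0.837). It was also lost without day 12 replicate 2 or 3 or day 15 replicate 1 or 2 (0.0899 to 0.183), and with no filter (0.0594) or the replicate block (0.0586). Of the 7 members, 2 passed in Control OE on day 3 against MEFs, where 51.2% of all genes did. Against MEFs, *Mettl14* passed as higher without Control OE replicate 2 (0.35, adjusted p = 0.0172), and *Mettl3* with median-ratio scaling (0.0381), *Zc3h13* with that (0.0338) or quantile normalization (0.0205) and *Rbm15* with quantile normalization (0.0405) as lower. For day 9 against day 6 the counts were 2 in *Mettl14* OE (41.1% of all genes), 4 in *Mettl3* OE (47.8%) and 2 in Control OE (43.3%). For day 15 against day 12 they were 2 in *Mettl14* OE (31.1%), 3 in *Mettl3* OE (8.53%) and 2 in Control OE (15.8%).

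Of 23 further m6A genes, 3 were higher and 3 lower over all days in *Mettl3* OE, where 12.8% of all genes passed as higher and 22.8% as lower. All 6 calls held with any 1 library left out and under each scaling, and *Ythdc1* failed with day 3 left out (adjusted p = 0.0697). Those higher were *Virma*, *Ythdf2* (0.16 ± 0.03 SE, adjusted p = 1.4e-04), a reader that speeds decay of methylated mRNA, and the nuclear reader *Ythdc1* (0.17 ± 0.04, 0.00156). Those lower were *Mat2a* (-0.19 ± 0.03, 1.5e-05), which makes the methyl donor S-adenosylmethionine, the RNA-binding protein *Rbmx* (-0.21 ± 0.04, 1.7e-05) and the reader *Prrc2a* (-0.15 ± 0.04, 0.00150). *Ythdf2* was 1.34-fold higher in *Mettl3* OE on days 3 and 6 (18.9 against 14.1 FPKM and 21.5 against 16.1 FPKM, adjusted p 0.00754 and 0.0227). On day 9 it had 16.07 against 13.83 FPKM (0.20, adjusted p = 0.0942, and 0.0233 with median-ratio scaling), on day 12 11.02 against 11.06 FPKM (0.00, 0.998) and on day 15 8.29 against 9.61 FPKM (-0.19, 0.160). Its day 6 call was lost without Control OE replicate 2 or 3 or *Mettl3* OE replicate 2 or 3 (0.0679 to 0.136). The day 3 call of *Virma* was lost without replicate 1 or 2 of Control OE or 1 or 3 of *Mettl3* OE (0.0512 to 0.0700) and with no filter (0.0625). On single days the list had 2 higher on day 3 (9.5% of all genes passed in either direction), 1 higher on day 6 (4.31%), 0 on days 9 and 12 (9.35% and 5.47%), and 5 lower on day 15 (14.8%). The median over the 23 genes was 0.00, beside -0.02 over all genes.

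In *Mettl14* OE 0 of the 23 genes were higher and 6 lower over all days, where 0.118% of all genes passed as higher and 13% as lower, with a list median of -0.08 beside -0.06 over all genes. The 4 of lowest adjusted p were *Mettl16* (-0.13, adjusted p = 0.0203), which methylates U6 snRNA, the reader and helicase *Ythdc2* (-0.09, 0.0315), *Mat2a* (-0.11, 0.0319) and *Igf2bp1* (-0.10, 0.0413). *Virma* had -0.09 (adjusted p = 0.0490). Of the 6 calls, 0 held with median-ratio scaling, quantile normalization or day 12 or 15 left out, 1 with day 6 left out, and 3 with no filter or a replicate block. Leaving out single libraries gave 1 to 10 of the 23 as lower, with 10 without Control OE day 12 replicate 2 and 1 without Control OE day 12 replicate 1 or day 15 replicate 3 or *Mettl14* OE day 12 replicate 3 or day 15 replicate 3. Between the arms, 2 of the 23 were higher in *Mettl14* OE than in *Mettl3* OE (*Rbmx* 0.19 and *Mat2a* 0.09; 7.97% of all genes) and 7 lower (22.2% of all genes), led by *Virma* (-0.23, adjusted p = 2.0e-07), *Ythdf2* (-0.25, 2.8e-07), *Ythdf1* (-0.16, 4.6e-04) and *Ythdc1* (-0.18, 8.6e-04). Of these 9 calls, 7 held with median-ratio scaling and 8 with quantile normalization, and *Mat2a* failed without any 1 of 15 single libraries (adjusted p 0.0528 to 0.0985).

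Over the 48 libraries, with each gene centred within each table, the gene most like *Wtap* was *Ythdf2* (Pearson r = 0.903), followed by *Mpp6* (0.886) and *Pde12* (0.882). For *Rbm15* these were *Mrps2* (0.818), *Sde2* (0.801) and *Faap100* (0.785). For *Cbll1* they were *Zfp141* (0.866), *Hdgfrp3* (0.849) and *Shisa3* (0.845), for *Zc3h13* *Eif3a* (0.818), *Safb2* (0.797) and *Hnrnpr* (0.786), and for *Rbm15b* *Tfdp1* (0.887), *Srsf2* (0.880) and *Ptbp1* (0.865). For the overexpressed genes they were *Grpel2* (0.831), *Ush1c* (0.821) and *Mrpl43* (0.809) beside *Mettl3*, and *1700008J07Rik* (0.518), *Gm20554* (0.476) and *3110056K07Rik* (0.476) beside *Mettl14*. Among the members, *Wtap*, *Rbm15* and *Cbll1* correlated at 0.673 to 0.696 with each other, and *Rbm15b* at -0.01 with *Cbll1* and 0.12 with *Rbm15*. *Wtap* correlated at 0.39 with *Rbm15b* and 0.49 with *Zc3h13*, and *Rbm15b* at 0.56 with *Zc3h13*. *Mettl3*, its transgene libraries included, correlated at 0.704 with *Wtap*, 0.586 with *Rbm15* and 0.585 with *Cbll1*. With *Zc3h13*, *Rbm15b* and *Mettl14* it had 0.09, -0.12 and -0.46. These values describe libraries that share arms, days and scaling.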

How the data were processed

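The 48 libraries were made from poly(A) RNA with a stranded mRNA kit. Per the submitters' processing notes, the authors used TopHat2 2.1.1, Cufflinks 2.2.1 and build mm9, and deposited FPKM per gene in 3 tables. The annotation and the use of strand in counting are not given in the sources used here. The file held 24013 lines, or 24010 genes after 1 exact copy was dropped and lines that shared a symbol were summed, and 1473 genes were at 0 in every library. Depth was estimated from low values of 2222 single-transcript genes of at least 1500 bases, with lengths from an annotation that is not the authors' own, and covers counting error only.

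Values were analysed as log2(FPKM + 1) in limma 3.58.1 (R 4.3.3) with trend and robust moderation, which understates changes of low genes. Arms were compared within a day over its 9 libraries (9863 to 12134 genes, each reaching 1 FPKM in 3 or more of the fitted libraries). Mean effects, differences between days (F tests) and steps within a table used all 48 libraries, 16 groups and 12738 genes. Calls were made at a Benjamini-Hochberg adjusted p under 0.05 over all genes tested, and printed adjusted p-values come from these tests (F tests aside, two-sided). The fits were tested on simulated data. Likeness, sequences and tables were computed with Python 3.11.15, pandas 2.3.3 and numpy 2.4.6, and figures with matplotlib 3.10.9.

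The members and lists were chosen with earlier results of these data known. All 7 members were named. Of 23 other m6A genes, *Virma* was named always, the others where they passed in a mean effect, up to 4 per direction by adjusted p, and the genes with the 3 highest correlations with each member. The daily values of *Ythdf2* were added after they were seen, and so were the alternatives for these 23 genes. Replicate numbers were not used to pair the libraries in the main fits, as no comparison had every same-numbered pair over an r of 0.1. The alternatives were other pseudocounts, filters, scalings, weights, moderation, a replicate block, single libraries or days left out, 1 fit for all libraries, and a fold of 1.5.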

Additional observations from a re-analysis of the deposited data

Results flagged for a closer look

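The effect of *Mettl3* OE against Control OE differed between days by limma's F test for 11 of the 30 genes tested here, the members and the other m6A genes, where it did for 18.8% of all genes. Among the members these were *Mettl3* itself (adjusted p = 4.1e-04; log2 change 8.57 on day 3 and 7.72 on day 15), *Wtap* (0.00275), *Rbm15* (3.5e-05), *Zc3h13* (0.0459) and *Cbll1* (0.00117). Among the other m6A genes they were *Mettl16* (6.0e-05), *Mat2a* (0.0137), *Ythdf1* (0.00709), *Ythdf2* (1.2e-04), *Igf2bp1* (6.0e-04) and *Hnrnpa2b1* (0.00231).

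The effect of *Mettl14* OE against Control OE differed between days for 1 of these 30, *Mettl14* itself (adjusted p = 0.0127; 0.055% of all genes), with log2 changes of 5.90 on day 3 and 5.21 on day 15.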

How the results depend on the processing

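Of 3314 recomputed values of single members, 3155 kept their side of the threshold, 112 lost a call, 47 gained one and 0 reversed a call. The 3155 include 110 values that were not called and changed sign. In *Mettl3* OE against Control OE, the number of members higher on day 3 was 2 with no filter on low values, that on day 9 was 0 with a filter at 5 FPKM, no filter, no trend and robust moderation, a pseudocount of 0.1 or a replicate block, and that on day 15 was 1 with median-ratio scaling. The number lower was 4 on day 12 and 2 on day 15 with library weights, 0 on day 15 with median-ratio scaling, no filter or no trend and robust moderation, and 1 over all days with day 3 or day 6 left out or with library weights. In *Mettl14* OE against Control OE, the number lower was 3 on day 12 and 1 on day 15 with library weights, and 1 over all days with day 3 left out or with library weights. In *Mettl14* OE against *Mettl3* OE, it was 3 on day 3 with all 48 libraries in 1 fit, 2 on day 6 with a filter at 5 FPKM, no filter, median-ratio scaling or quantile normalization, 1 on day 12 with all 48 libraries in 1 fit or library weights, and over all days 4 with library weights (*Zc3h13* gained, adjusted p = 0.0494) and 2 with a filter at 5 FPKM, which leaves out *Cbll1*; on day 9 it was 1 with a filter at 5 FPKM, no filter, median-ratio scaling or no trend and robust moderation and 0 with quantile normalization or a replicate block, and the number higher on day 9 was 1 with quantile normalization. With a fold of 1.5 added, no member was called in a mean effect: 0 higher in *Mettl3* OE against Control OE and 0 lower in *Mettl14* OE against *Mettl3* OE. The cause of these moves was not tested, and the fit of library weights reported a convergence warning.

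With single libraries left out, the number higher in *Mettl3* OE against Control OE was 2 to 4 on day 3, 0 to 2 on day 6, 0 to 1 on day 9 and 3 to 3 over all days, and the number lower 0 to 1 on days 12 and 15 and over all days. In *Mettl14* OE against Control OE the number lower was 0 to 2 on day 12 and 0 to 1 over all days, and in *Mettl14* OE against *Mettl3* OE 2 to 2 on day 3, 0 to 3 on day 6, 0 to 2 on day 9 and 3 to 3 over all days. Same-numbered libraries mostly did not deviate together (r over 0.1 in 9 of 45 pairs, median -0.05), and in 0 of 15 comparisons did every pair pass 0.1. On day 6 the pairs of *Mettl3* OE and Control OE had r of 0.34, 0.13 and 0.01. With the block, genes called on day 6 went from 498 to 1930 in *Mettl3* OE against Control OE. In *Mettl14* OE against *Mettl3* OE they went from 652 to 2084. Whether replicates of that day shared a source was not tested, and the block result is only a check of shared numbers.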
